A study of Mus musculus with 16 samples.

Results

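The clock output and PAR bZIP genes are 10 genes whose liver transcripts are known to rise and fall over the day. They are Dbp, Tef, Hlf, Nfil3, Usp2, Wee1, Ciart, Bhlhe41, Por and Alas1. Members were taken by gene symbol from a table of 15544 genes, and all 10 had a row and passed the filter on low values, which 12704 genes passed. The 16 libraries came from livers of female mice aged 27 weeks, with 4 libraries in each of 4 groups. Each library is taken as 1 mouse. The labels do not name the animals, so p-values measure only the spread between these libraries. Every mouse carried floxed alleles of Esr1, the gene of oestrogen receptor alpha. Controls (Esr1fl/fl) had no Cre, and mutants (Esr1Nkx2-1Cre) had in addition a Cre under Nkx2-1 that deletes the receptor in a portion of the hypothalamus, so that a liver library does not check the genotype label. Both genotypes were studied on chow and after 17 weeks of a high-fat diet (HFD) with 60% of its calories from fat. The mice were of a mixed CD-1;129P2 background and lived in a light-dark cycle, and the time of day at which livers were taken is not given in the sources used here.

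In the liver clock, CLOCK and BMAL1 bind E-boxes and drive the PER and CRY proteins that later repress them, and the same E-boxes drive output genes such as Dbp. DBP, TEF and HLF are PAR bZIP factors, named for a proline and acidic amino acid-rich domain, and they activate genes through D-boxes, which the repressor NFIL3 also binds. Through this layer the clock is known to time detoxification, haem supply and bile acid synthesis in the liver. In bulk tissue, fewer cells of a type and less RNA per cell cannot be told apart.

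Promoter letters of kinds that clock factors are known to read are shown first, since E-boxes, D-boxes and ROR elements are the elements by which this gene layer is usually described. Windows of 250 bases before to 50 bases after the RefSeq start (GRCm38.p6) were found for 9 members, with 2 starts each for Tef and Alas1, and none was found for Wee1. Both strands were searched for the E-box CACGTG, for the D-box written as TTATGTAA or TTACGTAA, and for the core of the ROR element, TAGGTCA. Stretches with a match are printed on the strand of their gene with the match in capitals.

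Tef, start 1: gtgctgtggctcCACGTGctgcagctggc
Tef, start 2: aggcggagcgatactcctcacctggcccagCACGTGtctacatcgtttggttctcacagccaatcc
Ciart: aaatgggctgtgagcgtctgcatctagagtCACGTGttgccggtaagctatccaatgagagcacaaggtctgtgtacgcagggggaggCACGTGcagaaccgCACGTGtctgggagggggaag
Bhlhe41: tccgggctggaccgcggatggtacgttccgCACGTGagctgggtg
Nfil3: ggcgctcggaacTGACCTActaac

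The Tef stretches lie on the plus strand at chr15:81802534-81802562, inside an annotated exon of a longer transcript, and at chr15:81811246-81811311, in an intron. The Ciart stretch is at chr3:95882252-95882374 and the Bhlhe41 stretch at chr6:145865559-145865603, both on the minus strand and upstream of the gene. The Nfil3 stretch is at chr13:52981040-52981063 on the minus strand, inside an annotated exon, and its capitals are the ROR core read from the opposite strand. Ciart held 3 E-boxes, which began at -116, -58 and -44 from the start, and Bhlhe41 held 1 at -153. An E-box was present in 4 of 11 member windows, against 7.15% of all 32851 windows, and for 3 of 9 members, against 8.09% of genes. A ROR core was present for 1 of 9 members, against 2.97% of genes, and a D-box for 0 of 9, against 1.23% of genes. A match is a description of these letters and not a measured binding site, and no match says only that the letters are not in this window.

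**Figure D1:**
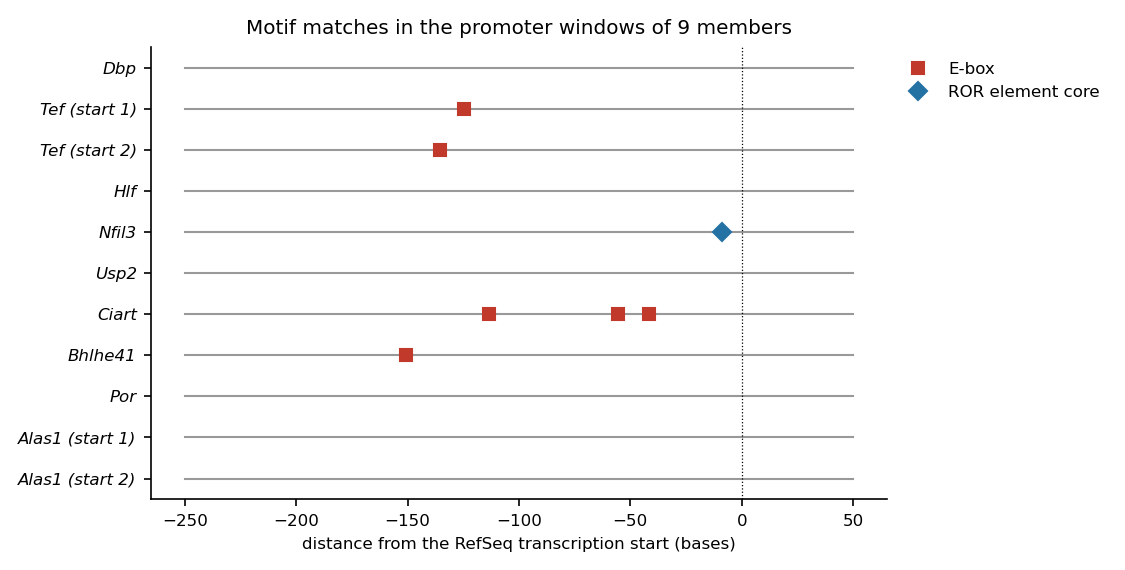
Motif matches in the promoter windows of the 9 members that had one. The x axis is the distance in bases from the RefSeq start, each line is 1 window, squares are E-boxes and the diamond is a ROR core, and Ciart carries 3 of the squares.

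Dbp, the D-box activator whose transcript has the widest daily swing of the PAR bZIP family, lies at chr7:45705088-45710203 on the plus strand. Values are size-factor-adjusted TPM, a length-adjusted share of each library. In chow controls Dbp stood at 90.0, 4.93, 97.2 and 219, in the order of the replicates. In chow mutants it stood at 6.68, 16.7, 167 and 124. The chow groups overlapped across nearly their whole range, because control 2 and mutants 1 and 2 were low. In HFD controls the values were 57.3, 255, 296 and 143, and in HFD mutants they were 135, 138, 153 and 181. Mutants on HFD were thus close together and lay inside the range of the controls. Group means were 103 ± 87.9 (SD, n = 4) in chow controls, 78.4 ± 79.2 in chow mutants, 188 ± 109 in HFD controls and 152 ± 21.0 in HFD mutants. The highest liver exceeded the lowest by 60.1-fold over all 16 mice and by 44.3-fold within chow controls alone. Dbp shares 539 exon bases with Sphk2 on the opposite strand, and since the counting was not stated to use strand, reads there cannot be told apart. The median Sphk2 value was 13.97.

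Tef, the D-box activator with the highest median level per length among the 3, lies at chr15:81802421-81826863 on the plus strand. Its values were 199, 72.7, 222 and 284 in chow controls and 56.1, 70.5, 237 and 192 in chow mutants. On HFD they were 95.5, 229, 222 and 245 in controls and 121, 217, 226 and 276 in mutants. The low livers on chow were those that were low in Dbp, and on HFD the first replicate of each genotype was low. Hlf (chr11:90336536-90390895, minus strand), the third activator, moved least, from 15.7 to 35.6 over all livers. Its means were 25.8 ± 4.42 and 26.9 ± 9.80 (SD, n = 4) in controls and chow mutants, and 23.8 ± 6.81 and 30.3 ± 6.67 on HFD, so that every pair of groups overlapped.

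Nfil3 (chr13:52967209-52981073, minus strand), the repressor that competes for D-boxes, ran opposite to the activators. It was 13.3, 26.6, 13.8 and 7.46 in chow controls and 27.2, 21.3, 11.6 and 9.14 in chow mutants. On HFD it was 24.6, 18.1, 14.2 and 12.3 in controls and 17.0, 7.95, 5.96 and 6.55 in mutants. Mutants 2, 3 and 4 on HFD lay below every control on HFD, and mutant 1 lay among them.

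Ciart (chr3:95878503-95882251, minus strand), a repressor of CLOCK and BMAL1 whose promoter is printed above, spanned 31.1-fold. It was 10.9, 5.27, 16.8 and 43.9 in chow controls and 1.80, 1.49, 19.5 and 16.3 in chow mutants. On HFD it was 9.43, 45.9, 46.2 and 32.7 in controls and 4.05, 23.7, 31.7 and 32.7 in mutants. The first replicate was again the low one in both HFD groups. Bhlhe41 (chr6:145858243-145865558, minus strand), an E-box repressor also called DEC2, was the least abundant member, with a median of 1.71 over all livers. It ran from 0.184 to 7.16 on chow, and on HFD from 1.70 to 3.36 in controls and from 0.942 to 2.09 in mutants.

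Usp2 (chr9:44067021-44095627, plus strand) encodes a ubiquitin protease with clock-driven isoforms, and Wee1 (chr7:110122046-110143286, plus strand) encodes the kinase that delays entry into mitosis. Usp2 was 6.87, 2.004, 12.2 and 34.4 in chow controls, 2.84, 3.12, 13.3 and 8.27 in chow mutants, 8.90, 19.0, 23.6 and 30.1 in HFD controls, and 4.16, 22.3, 34.5 and 28.6 in HFD mutants. Wee1 was 4.61, 0.879, 5.80 and 11.3 in chow controls, 0.971, 1.76, 7.57 and 5.86 in chow mutants, 1.60, 9.22, 10.4 and 15.1 in HFD controls, and 1.57, 11.5, 10.7 and 13.8 in HFD mutants. Wee1 thus stood at 1.76 or below in 5 livers and at 4.61 or above in the other 11. The 5 livers were control 2 and mutants 1 and 2 on chow, and the first replicate of each genotype on HFD. They were also the 5 lowest livers for Tef, Hlf and Ciart, and 4 of them were among the 5 lowest for Dbp, Usp2, Por and Alas1. For Nfil3, 4 of them were among the 5 highest livers, and for Bhlhe41 the number among the 5 lowest was 3. This count was chosen after the values were seen and carries no test.

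Por (chr5:135670033-135735326, plus strand), the reductase that passes electrons to the microsomal cytochromes P450, and Alas1 (chr9:106233455-106248654, minus strand), the rate-limiting enzyme of haem synthesis in the liver, were the abundant members. Por spanned 2.49-fold, from 208 to 518, with group means of 343 ± 123, 326.3 ± 55.3, 334 ± 51.2 and 401 ± 124 (SD, n = 4) in chow controls, chow mutants, HFD controls and HFD mutants. Alas1 was 448, 286, 581 and 654 in chow controls and 332, 331, 330 and 370 in chow mutants. On HFD it was 723, 614, 817 and 430 in controls and 267, 830, 864 and 657 in mutants. Mutants on chow were unlike the other groups in lying within 1.122-fold of each other, and all 4 lay inside the range of the controls. Alas1, Bhlhe41, Tef and Usp2 also share exon bases with antisense genes that have no row in the table.

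**Figure D2:**
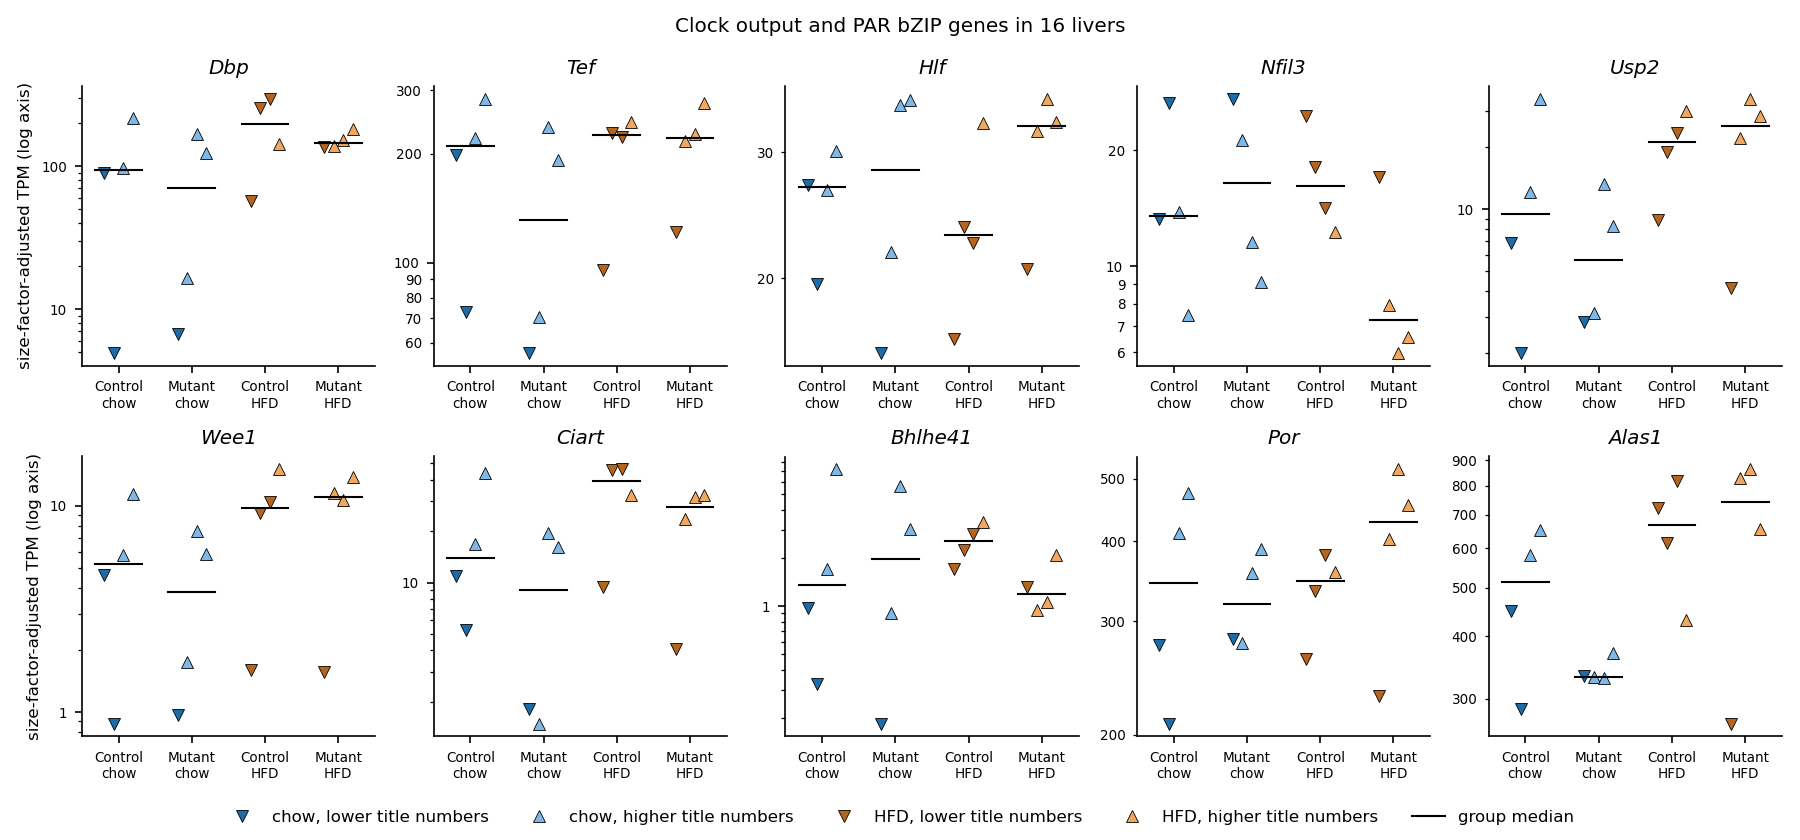
Each member in each of the 16 livers, in size-factor-adjusted TPM on a log axis, by genotype and diet. Points are mice, bars are group medians, and point shape gives the lower or higher run of numbers in the library titles, and Dbp, Bhlhe41, Usp2, Ciart and Wee1 spread over more than 10-fold in at least 1 group while Hlf and Por stay within 2.3-fold in each.

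The spread between mice of the same group was wide for these genes. On log2(value + 1), the SD pooled within groups was 1.66 for Dbp, 1.31 for Ciart, 1.14 for Usp2 and 1.12 for Wee1, against a median of 0.26 over the 12704 tested genes. These SDs lay at the 99.6th, 99.3rd, 99.0th and 98.9th percentiles of all tested genes. Bhlhe41 (0.82), Tef (0.78) and Nfil3 (0.62) lay at the 97.4th, 97.0th and 94.3rd percentiles. Alas1 (0.52), Por (0.41) and Hlf (0.40) were lower, at the 90.3rd, 81.5th and 80.1st. Arntl, the row that holds Bmal1, had an SD of 0.99 and lay at the 98.5th percentile. The percentiles describe the genes and carry no test.

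**Figure D3:**
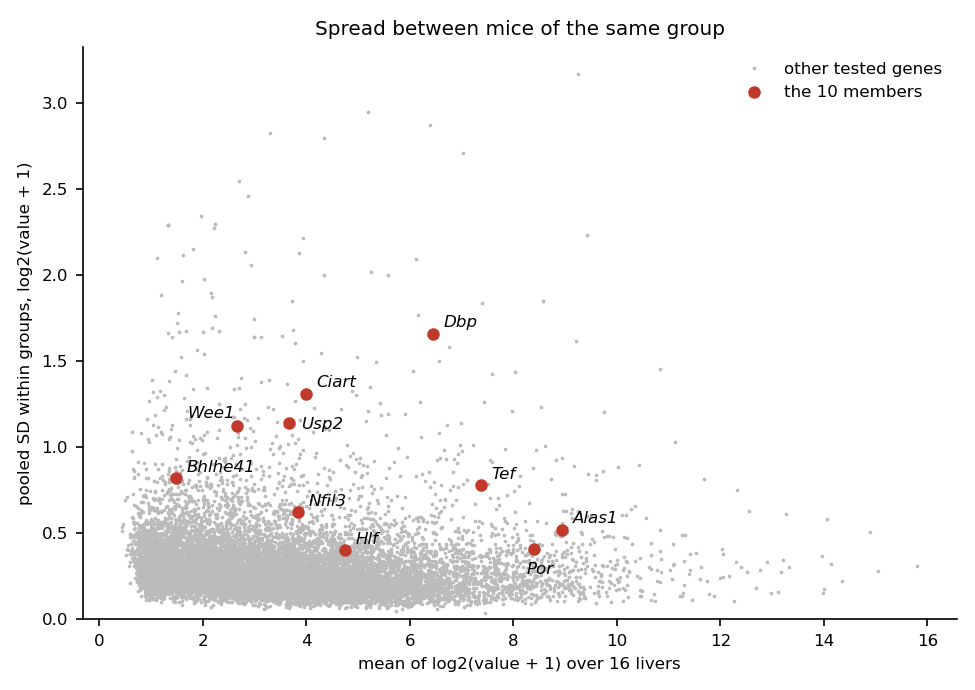
Spread between mice of the same group against mean level for the tested genes. The x axis is the mean of log2(value + 1) over 16 livers, the y axis is the SD pooled within the 4 groups, and Dbp at 1.66 and Ciart at 1.31 stand far above the grey mass of other genes.

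The comparison of genotypes on chow asked whether loss of the receptor in the hypothalamus went with a change in liver. None of the 10 members passed the threshold (limma with Benjamini-Hochberg adjustment over all tested genes, adjusted p under 0.05), where 0.0236% of all genes did. At an unadjusted p under 0.05 the count was also 0 of 10, against 6.08% of genes. With the runs of title numbers as terms, described further on, that count was 1 of 10, against 8.32% of genes. Log2 fold changes, mutant over control, ran from -1.15 for Ciart (SE 0.82) to 0.18 for Nfil3 (SE 0.39), with a median of -0.42 over the members and 0.02 over all genes. For Dbp the value was -0.51 (SE 1.04). No member was free of overlap between the groups, against 3.05% of genes. Mutants 1 and 2 on chow, which were low in Dbp, had summed values of the neutrophil markers S100a8, S100a9 and Retnlg (3 of the 4 listed, the other having no row) of 2492 and 5490, where the other 14 livers were at 128 or below. Their summed acute-phase markers, 5 of 5 with a row, were 5443 and 67834, where the other 14 were at 1159 to 11740. Control 2 on chow, which was as low in Dbp, had sums of 4.54 and 1159 for the same lists. The part of these markers in the Dbp levels was not tested. Without mutants 1 and 2, a choice made after the values were seen, the Dbp difference on chow was 1.31, and still no member passed the threshold.

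The comparison of genotypes on HFD gave 0 of 10 members past the threshold, against 0.0157% of genes (limma, adjusted p under 0.05). Nfil3 alone had an unadjusted p under 0.05, against 8.6% of genes. Its log2 fold change, mutant over control, was -0.88 (SE 0.39, unadjusted p = 0.0395, limma adjusted p = 0.573), from means of 17.3 ± 5.42 in controls and 9.37 ± 5.17 in mutants (SD, n = 4). It was lower than every control in 3 of 4 mutants. The other members ran from -0.63 for Ciart (SE 0.82) to 0.35 for Hlf (SE 0.26), and Dbp was at -0.06 (SE 1.04). The median over members was -0.06 and over all genes 0.02. No member was free of overlap, against 2.69% of genes. When each library was weighted by its fit, the Nfil3 difference was -1.19 with a limma adjusted p of 0.0103 and that of Hlf was 0.55 with an adjusted p of 0.0376, in a fit that called 30.9% of all genes. With the runs of title numbers as terms, which split 3 to 1 by genotype on HFD and are described further on, the Nfil3 difference was -0.44 and that of Hlf 0.01 (limma adjusted p = 1.0 for each), and no member had an unadjusted p under 0.05. The weighted fit gave its lowest weights to control 4 (0.228) and mutant 1 (0.329) on HFD. Control 4 is the only control in the higher run and mutant 1 the only mutant in the lower run. How much of the weighted difference belongs to genotype and how much to the runs was not tested.

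HFD was compared with chow within each genotype. Each run of title numbers, described further on, held livers of a single diet. Diet therefore cannot be told apart from whatever the runs stand for. In controls 0 of 10 members passed the adjusted threshold, where 0% of genes did, and 0 of 10 passed the unadjusted threshold, where 12.9% of genes did (limma). Fold changes on the log2 scale ran from -0.14 for Hlf (SE 0.26) to 1.44 for Dbp (SE 1.04), with a median of 0.38 against -0.01 over all genes. In mutants 0 of 10 passed the adjusted threshold, with 0% of genes, and 1 of 10, Alas1, passed the unadjusted one, with 6.86% of genes. Alas1 averaged 340.9 ± 19.5 in chow mutants and 655 ± 274 in HFD mutants (SD, n = 4), and its log2 fold change was 0.81 (SE 0.33, unadjusted p = 0.0281, limma adjusted p = 0.687). It was above every chow mutant in 3 of 4 HFD mutants. Dbp differed by 1.89 (SE 1.04), Usp2 by 1.48 (SE 0.71) and Nfil3 by -0.81 (SE 0.39) between diets in mutants. Without chow mutants 1 and 2, again left out after the values were seen, these differences were 0.07 for Dbp, 0.71 for Usp2 and -0.23 for Nfil3. The 2 diet comparisons gave 0 members free of overlap, against 6.36% of genes in controls and 3.53% in mutants. The genotype by diet interaction called 0 of 10 members, with 0% of genes past the adjusted threshold, and 0 of 10 at an unadjusted p under 0.05, with 4.21% of genes (limma). Nfil3 had the interaction of largest size among the members, -1.06 (SE 0.56), from differences of 0.18 on chow and -0.88 on HFD.

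The library titles carry numbers that fall into a lower and a higher run within each diet. On HFD the lower run holds 3 controls (1, 2 and 3) and mutant 1, and the higher run holds control 4 and mutants 2, 3 and 4. On chow the lower run holds controls 1 and 2 and mutant 1, and the higher run the remaining 2 controls and 3 mutants. What these numbers stand for is not in the labels. Higher was compared with lower in a fit that kept the 4 group means.

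On HFD, 3 of 10 members were higher in the higher-numbered livers (limma, adjusted p under 0.05), against 25.2% of all genes, and 5 of 10 had an unadjusted p under 0.05, against 37.8%, so that the share of members called was near the background. Hlf was 16.5 to 23.6 in the lower run and 32.1 to 35.6 in the higher run, without overlap, and its log2 fold change was 0.67 (SE 0.20, limma adjusted p = 0.0296). Wee1 was 1.60, 9.22, 10.4 and 1.57 against 15.1, 11.5, 10.7 and 13.8, also without overlap, with a log2 fold change of 1.79 (SE 0.58, limma adjusted p = 0.038). Usp2 was higher by 1.68 (SE 0.57, limma adjusted p = 0.0458), from 13.9 ± 8.93 to 28.8 ± 5.04 (SD, n = 4 livers a run), and its runs overlapped. Nfil3 was 14.2 to 24.6 in the lower run and 5.96 to 12.3 in the higher run, without overlap, but missed the threshold at -0.88 (SE 0.33, limma adjusted p = 0.0656). Over all genes 35.6% had no overlap between these runs. Dbp stood at 0.01 (SE 0.97), the smallest of the 10 differences in absolute size, and mutants 1 and 2 on HFD had nearly equal Dbp (135 and 138) with Wee1 at 1.57 and 11.5. That pair was chosen after the values were seen.

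These calls turned on single livers. No member was called without control 1, mutant 1 or mutant 3 on HFD, where 22.5%, 14.7% and 21.7% of all genes were. Without control 4, mutant 2 or mutant 4 the count was 1, against 5.61%, 21.3% and 23.7% of genes. Without control 3 it was 5, against 22.4%. The runs also differed in summed markers of other cells. Endothelial markers were at 108 to 120 in the lower run and 129 to 148 in the higher. Stellate cell markers were at 136 to 149 and 176 to 217, and red cell markers at 4830 to 6922 and 1695 to 4547. The endothelial markers did not move as 1: Stab2 was at 1.16 (SE 0.28) and Kdr at 0.64 (SE 0.22), but Clec4g at -0.16 (SE 0.13). The median of the 5 endothelial log2 differences was 0.27. Acute-phase genes, a separate list, summed to 2700 to 11740 in the lower run and 1398 to 1957 in the higher. Summed hepatocyte markers were 64288 to 79275 and 82014 to 106848, a sum led by Alb, the albumin gene (log2 difference 0.55, SE 0.26), while 4 of the 6 markers were at lower values in the higher run and the median of the 6 differences was -0.24. Their part in the members' levels was not tested.

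On chow, 0 of 10 members passed the adjusted threshold between the runs, with 0% of genes (limma), and 9 of 10 had an unadjusted p under 0.05, against 11.6% of genes. All but Alas1 were among the 9, and 8 of these were at higher values in the higher run while Nfil3 was at -0.90 (SE 0.30). Dbp was 90.0, 4.93 and 6.68 in the lower run and 97.2, 219, 16.7, 167 and 124 in the higher run, a log2 difference of 2.90 (SE 0.90, unadjusted p = 0.00656, limma adjusted p = 0.262). Bhlhe41 was 0.184 to 0.977 against 0.908 to 7.16, a difference of 1.58 (SE 0.40, unadjusted p = 0.00176, limma adjusted p = 0.198). The others ran from 0.54 for Hlf (SE 0.19) to 1.74 for Ciart (SE 0.74), and the median over the members was 1.34 against 0.00 over all genes. No member was free of overlap, against 6.76% of genes, and mutant 2 on chow, in the higher run, was among the low livers. The count of 9 became 3 without mutant 1 on chow, against 8.82% of genes, and 4 without control 2, against 9.01%. It was 7 to 9 when any other chow liver was left out, against 9.56% to 14.9%. Since the members varied together, as given further on, the 9 are not separate results.

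**Figure D4:**
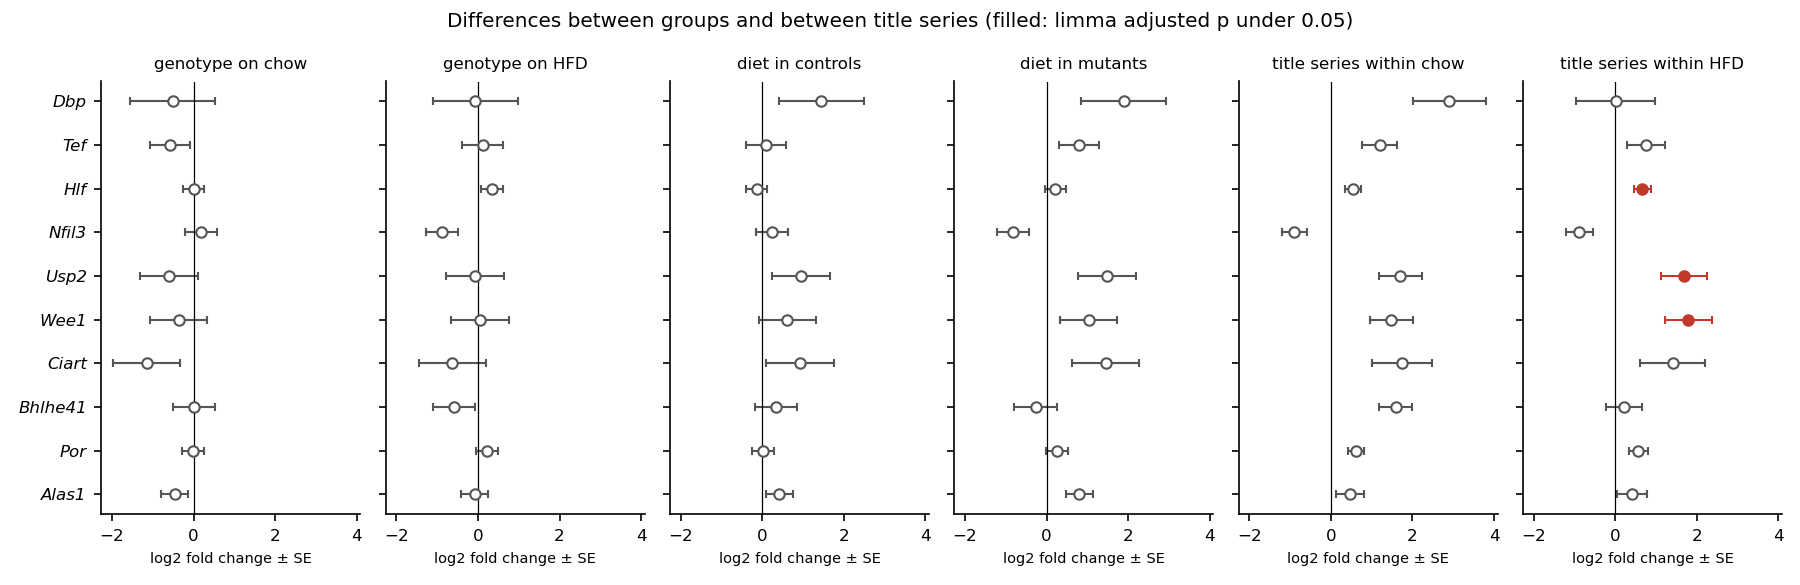
Log2 fold change of each member with its SE in 6 comparisons: mutant over control on each diet, HFD over chow in each genotype, and higher over lower title numbers on each diet. Filled points have a limma adjusted p under 0.05, which in these panels holds for Hlf, Usp2 and Wee1 between the title runs on HFD alone.

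Across the 16 livers the members varied together, with Nfil3 running opposite. The 36 pairs that do not include Nfil3 all had a positive Pearson correlation on log2(value + 1), from 0.21 for Bhlhe41 with Alas1 to 0.94 for Usp2 with Wee1, with a median of 0.74. The 9 pairs that include Nfil3 were all negative, from -0.90 with Hlf to -0.48 with Bhlhe41. These are descriptions, since the points share the 4 groups.

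Dbp was set against the 9 other members and Arntl, which makes 10 relations. Over 16 livers Pearson's r was 0.90 with Tef (Spearman's rho 0.85, permutation p = 4e-05 and 7e-05, adjusted p = 0.000125 and 0.000233), 0.83 with Ciart (rho 0.91, permutation p = 0.0004 and 1e-05, adjusted p = 0.0008 and 0.0001) and 0.82 with Wee1 (rho 0.77, permutation p = 5e-05 and 0.00084, adjusted p = 0.000125 and 0.00168). It was 0.82 with Usp2 (rho 0.81, permutation p = 2e-05 and 0.00028, adjusted p = 0.0001 and 0.0007) and 0.72 with Bhlhe41 (rho 0.73, permutation p = 0.00204 and 0.00195, adjusted p = 0.00291 and 0.00325). It was -0.70 with Nfil3 (rho -0.59, permutation p = 0.00183 and 0.0194, adjusted p = 0.00291 and 0.0242), 0.65 with Por (rho 0.59, permutation p = 0.00532 and 0.0173, adjusted p = 0.00665 and 0.0242) and 0.62 with Hlf (rho 0.51, permutation p = 0.00843 and 0.0439, adjusted p = 0.00937 and 0.0488). With Alas1 r was 0.56 (rho 0.49, permutation p = 0.0213 and 0.0577, adjusted p = 0.0213 and 0.0577), so that the rank relation missed the threshold. With Arntl, whose protein BMAL1 drives the E-boxes, r was -0.95 (rho -0.86, permutation p = 1e-05 and 6e-05, adjusted p = 0.0001 and 0.000233). Arntl was low in most livers, with a median of 1.51 and a range of 0.272 to 13.04, and log2(value + 1) understates differences among such low values. The value 1e-05 is the smallest that these 100000 resamples can give. The resamples moved values freely among all 16 livers. These p-values therefore do not allow for differences between the groups or the title runs.

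Part of this rests on few livers, since Dbp was under 20 in 3 chow livers and above 50 in the other 13. Without the 2 livers farthest from the median of Dbp (mutant 1 and control 2 on chow), r was 0.86 with Ciart, 0.84 with Tef, 0.71 with Usp2, 0.71 with Wee1 and -0.85 with Arntl, each with a permutation p adjusted to under 0.05. It was 0.50 with Bhlhe41, 0.49 with Por, -0.49 with Nfil3, 0.38 with Hlf and 0.37 with Alas1, with adjusted permutation p-values of 0.0857 to 0.196. Those 5 linear relations thus missed the threshold without these livers but kept their sign, and the change in r was not tested. For Bhlhe41 the rank relation held (rho 0.60, adjusted permutation p = 0.0427). Over the 13 livers with Dbp above 50, a choice made after the values were seen, r was 0.72 with Ciart (adjusted permutation p = 0.0342), 0.66 with Tef (0.0444), 0.66 with Wee1 (0.0444) and -0.71 with Arntl (0.0342), and missed the threshold with the other 6. By ranks over the same livers Wee1 missed it (rho 0.60, adjusted permutation p = 0.071) and Usp2 passed it (rho 0.65, adjusted permutation p = 0.047). Within chow (n = 8) r with Dbp ran from 0.67 for Alas1 to 0.99 for Wee1 among the positive relations and was -0.96 with Nfil3. Within HFD (n = 8) it ran from 0.10 for Alas1 to 0.74 for Tef and was -0.28 with Nfil3. With group means removed, r ran from 0.39 for Alas1 to 0.93 for Tef among the positive relations and was -0.81 with Nfil3 and -0.94 with Arntl.

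**Figure D5:**
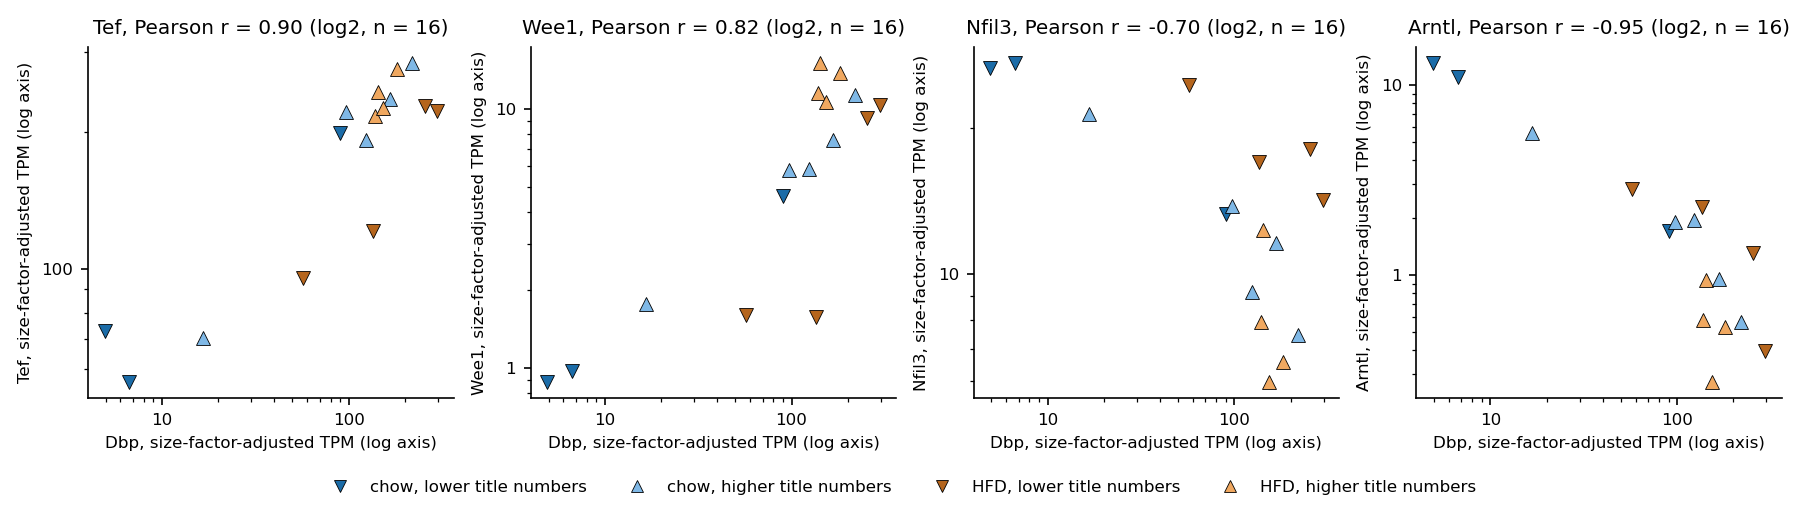
Dbp against Tef, Wee1, Nfil3 and Arntl in the 16 livers, in size-factor-adjusted TPM on log axes. Points are livers, shaped and coloured by diet and run of title numbers, and the 3 chow livers at Dbp values of 4.93 to 16.7 lie at low Tef and Wee1 and at high Nfil3 and Arntl.

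The genes outside the members with the pattern most like Dbp were looked for by Pearson's r on log2(value + 1) over the 16 livers. The 5 most alike were Per3 (0.95), a clock repressor, Bhlhe40 (0.93), the paralogue of Bhlhe41, Gys2 (0.92), the liver glycogen synthase, Traf4 (0.92) and Ddo (0.92). The 5 most opposite were Stra6l (-0.97), Lgalsl (-0.95), Arntl (-0.95), Tbc1d2 (-0.94) and Rai14 (-0.93). Arntl was 1.71, 13.04, 1.91 and 0.564 in chow controls, 10.97, 5.61, 0.953 and 1.95 in chow mutants, 2.83, 1.31, 0.397 and 0.936 in HFD controls, and 2.27, 0.577, 0.272 and 0.530 in HFD mutants. It was highest in the same 3 chow livers in which Dbp was lowest.

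Of the 17 names in the core clock list, 16 had a row, Bmal1 being listed as Arntl. None passed the adjusted threshold in the genotype, diet or interaction comparisons or between the chow runs (limma), and at an unadjusted p under 0.05 there were 0 of 16 for genotype on either diet and for the interaction, 2 of 16 for diet in each genotype (12.9% of all genes in controls and 6.86% in mutants) and 9 of 16 between the chow runs (11.6%). Between the HFD runs there were 4 of 16, against 37.8%. At the adjusted threshold 2 of 16 were higher and 1 was lower between these runs, against 25.2% of all genes (limma). Between the HFD runs Rora, an activator of ROR elements, was higher by 0.62 (SE 0.13, limma adjusted p = 0.00395), and so was Nr1d2, a repressor of the same elements, by 0.81 (SE 0.20, limma adjusted p = 0.0119). Nr1d1, the paralogue of Nr1d2, fell by 0.59 (SE 0.20, limma adjusted p = 0.0465). Over all livers Nr1d1 ran from 51.1 to 105, Clock from 2.49 to 9.57, Per1 from 5.97 to 21.0, Per2 from 2.67 to 14.9 and Cry1 from 2.26 to 7.06. Their within-group SDs on the log2 scale were 0.37, 0.39, 0.50, 0.57 and 0.32. Each was under that of Nfil3 (0.62), while Arntl at 0.99 was above it. The members Alas1 (0.52), Por (0.41) and Hlf (0.40) lay under Per2.

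Lists of genes downstream of or beside the members were also counted, 5 in all, and each had 0 genes past the adjusted threshold outside the HFD runs (limma). Among 14 PAR bZIP targets in xenobiotic and bile acid metabolism, the unadjusted count was 4 and 2 for genotype on chow and on HFD (6.08% and 8.6% of all genes), 2 and 4 for diet in controls and mutants (12.9% and 6.86%), 1 for the interaction (4.21%), 2 between the chow runs (11.6%) and 2 between the HFD runs (37.8%). Cyp7a1, the rate-limiting enzyme of bile acid synthesis, was higher in the higher HFD run by 2.05 (SE 0.49, limma adjusted p = 0.00907), and no other gene of that list was called. For genotype on HFD, by which these runs split 3 to 1, Cyp7a1 differed by 2.32 (SE 0.62, limma unadjusted p = 0.00203, adjusted p = 0.524). Of 16 further rhythmic outputs, 3 were higher and 1 lower between the HFD runs. They were Nampt, the NAD salvage enzyme, at 0.96 (SE 0.22), Upp2, a uridine phosphorylase, at 1.62 (SE 0.43), Lonrf3 at 0.63 (SE 0.19) and Slc45a3 at -0.87 (SE 0.27), with limma adjusted p-values of 0.00839 to 0.0332. At an unadjusted p under 0.05, to be read against the same shares of all genes, this list had 7 genes between the HFD runs, 5 genes between the chow runs, 3 and 1 for diet in controls and mutants, 0 and 1 for genotype on chow and on HFD, and 0 for the interaction.

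Beside Alas1 stand 11 genes of the haem pathway, of which Alad, the next enzyme, was higher by 0.67 (SE 0.12, limma adjusted p = 0.00195) in the higher HFD run, while Alas2, the red cell form of Alas1, was lower by -1.03 (SE 0.32) and the biliverdin reductase Blvrb by -0.42 (SE 0.14). Alas2 is also on the red cell list. Beside Por stand 5 genes of electron transfer to P450, of which Cyb5r3, a cytochrome b5 reductase, was higher by 0.58 (SE 0.19, limma adjusted p = 0.038). Of 8 glucocorticoid response genes, the receptor Nr3c1 was higher by 0.87 (SE 0.13, limma adjusted p = 0.000611) and Pck1, a gluconeogenic enzyme, lower by -1.10 (SE 0.37, limma adjusted p = 0.0449). These shares, from 1 of 14 to 3 of 11, are read against the 25.2% of all genes that passed between the HFD runs.

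The liver label was checked with 6 hepatocyte markers, which summed to 64288 to 106848 in every library. Column totals ran from 905897 to 1119703 and 11834 to 12443 genes reached a value of 1. Sequencing depth is unknown because TPM keeps none. No pair of libraries held identical values.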

How the data were processed

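Liver RNA of female mice, 16 libraries in all, was sequenced by the authors, who purified total RNA, had libraries made with a NEBNext Ultra II kit, assigned reads to mm10 transcripts with kallisto, summed them per gene and tested genes with sleuth. Tool versions, the annotation release and the use of strand are not given in the sources used here. Since kallisto apportions reads that match several transcripts, genes with near-identical copies have uncertain values. The authors deposited a TPM-like signal for each gene, with size factors applied between libraries. The unit was inferred from the values. The totals differ between columns, so they are neither counts nor plain TPM, depth is unknown, and no counting interval was computed. Every per-library column was used.

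Genes reaching 1 in 4 or more libraries were tested on log2(value + 1) with limma 3.58.1 (R 4.3.3), with a variance trend and Benjamini-Hochberg adjustment over 12704 genes at a threshold of 0.05. A fold change on this scale understates changes of low genes. A fit of 4 group means gave 5 comparisons, and a fit with 2 added terms for the runs of title numbers gave 2 more. Correlations used Pearson's r and Spearman's rho with two-sided permutation tests of 100000 resamples in Python 3.11.15 (scipy 1.17.1), adjusted over 10 relations. The limma code was tested on simulated data.

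Groups came from the genotype and treatment labels. Replicates were numbered in accession order and pair nothing. Members and gene lists were chosen with earlier results of these data known. The members are always named. Of other genes, Arntl, Clock, Nr1d1, Per1, Per2 and Cry1 are given by value, with the 5 genes most like and the 5 most opposite to Dbp, and in each list at most 4 genes past the threshold by smallest adjusted p. Positions are from GENCODE M21 on GRCm38 and promoter letters from RefSeq on GRCm38.p6. Alternatives covered scaling, filter, pseudocount, library weights, the libraries in the fit, title numbers as terms and leaving out each library.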

Additional observations from a re-analysis of the deposited data

Results flagged for a closer look

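In 2 of 40 groups of 4 mice, 10 members in 4 groups, a single liver lay far from the other 3 for its group's range, and chance marks about 1 in 20 groups. Tef was 95.5 in control 1 on HFD, where the other controls on HFD were at 222 to 245, and the gap was 0.847 of the range. Alas1 was 370.2 in mutant 4 on chow, where the other mutants on chow were at 330 to 332 (gap 0.935 of the range). The Alas1 gap is wide only relative to a group whose values lie within 1.122-fold.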

How the results depend on the processing

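No paired analysis was possible because the labels carry no replicate numbers. No member was called in a genotype, diet or interaction comparison or between the chow runs under any alternative, other than with library weights. With library weights 2 members, Nfil3 and Hlf, were called for genotype on HFD, in a fit that called 30.9% of all genes. That fit gave its lowest weights to control 4 and mutant 1 on HFD, whose runs differ from the rest of their genotype. Between the HFD runs 1 member was called with weights, against 20.9% of genes. Leaving out 1 library gave 0 to 5 members called between the HFD runs, where 5.61% to 23.7% of all genes were called. The other alternatives gave 2 to 4, against 19.8% to 32.3% of genes. Directions that turned belong to differences that no fit called, with 1 exception (Alas1 between the HFD runs, called at 1.54 without control 4 on HFD), and the values below are log2 fold changes. With library weights they were 0.24 for Dbp, -0.09 for Nfil3 and 0.05 for Por for genotype on chow, 0.48 for Usp2 and 0.11 for Alas1 for genotype on HFD, -0.57 for Dbp in the interaction and -0.13 for Dbp between the HFD runs. With median-of-ratios size factors they were -0.03 for Hlf (genotype on chow) and -0.04 for Dbp (HFD runs). Columns scaled to an equal total moved the median of all genes to -0.16 for diet in controls, 0.13 in the interaction and 0.17 between the HFD runs. With that scaling they were -0.08 for Hlf and -0.05 for Bhlhe41 (genotype on chow), 0.02 for Dbp, 0.02 for Usp2 and 0.01 for Alas1 (genotype on HFD), and -0.08 for Tef and -0.15 for Por (diet in controls). A pseudocount of 0.1 gave -0.00 for Hlf and -0.06 for Bhlhe41 (genotype on chow). Title runs as terms gave -0.13 for Hlf and -0.38 for Bhlhe41 (genotype on chow), -0.26 for Tef, -0.85 for Wee1 and -0.07 for Por (genotype on HFD), and -0.11 for Wee1 (interaction). Without a genotype term Dbp was -0.03 and Bhlhe41 -0.13 between the HFD runs. Without mutants 1 and 2 on chow, an alternative chosen after seeing the data, genotype on chow was 1.31 for Dbp, 0.29 for Tef, -0.40 for Nfil3, 0.17 for Usp2, 0.49 for Wee1, 0.27 for Ciart and 0.19 for Por, diet in mutants was -0.08 for Tef and -0.24 for Hlf, and the interaction was -1.37 for Dbp, -0.18 for Tef, -0.10 for Hlf, -0.23 for Usp2, -0.44 for Wee1 and -0.89 for Ciart.

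Leaving out each library in turn, differences that turned ranged as follows. For genotype on chow they ranged from -1.61 to 0.30 for Dbp, -0.15 to 0.22 for Hlf, -0.10 to 0.47 for Nfil3, -0.88 to 0.03 for Wee1, -0.40 to 0.53 for Bhlhe41 and -0.23 to 0.17 for Por. For genotype on HFD they ranged from -0.55 to 0.24 for Dbp, -0.20 to 0.36 for Tef, -0.40 to 0.56 for Usp2, -0.51 to 0.63 for Wee1, -1.13 to 0.02 for Ciart and -0.26 to 0.31 for Alas1. For diet in controls they ranged from -0.32 to 0.41 for Tef, -0.30 to 0.02 for Hlf, -0.02 to 0.55 for Nfil3, -0.02 to 0.86 for Bhlhe41 and -0.19 to 0.20 for Por, and for diet in mutants from -0.01 to 0.38 for Hlf and -0.68 to 0.15 for Bhlhe41. In the interaction they ranged from -0.36 to 1.55 for Dbp, -0.06 to 1.16 for Usp2 and -0.15 to 1.00 for Wee1. Between the HFD runs they ranged from -0.33 to 0.22 for Dbp, -0.00 to 0.43 for Bhlhe41 and -0.73 to 1.54 for Alas1. The cause was not tested. No correlation with Dbp changed sign under either other scaling or over the 13 livers with Dbp above 50, and the depth behind each value is unknown.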
